A study of Mus musculus with 3 samples.

Results

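The 10 genes described here encode extracellular matrix proteases of the ADAMTS and MMP families and tissue inhibitors of metalloproteases (TIMPs). They were taken by symbol (Adamts1, Adamts4, Adamts9, Mmp2, Mmp3, Mmp9, Mmp14, Timp1, Timp2 and Timp3), and all 10 were present among the 32285 genes counted in each of 3 libraries. RNA of single cells was captured with 10x 3' v3 droplet chemistry. The cells were lifted from the intima, the layer facing the blood, on the lesser curvature of the arch of the mouse aorta. All mice were C57Bl/6J wildtype, aged 12 to 13 weeks, with males and females pooled, and 5 to 10 mice went into each library. The control group had 2 libraries of untreated mice, and the other group had 1 library of mice given 30 µg of ultrapure lipopolysaccharide (LPS), a bacterial wall component, into a vein 18 h before harvest. Tissue of both groups was handled in actinomycin D, which blocks transcription, and was digested with collagenase D and DNase I.

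ADAMTS proteases are secreted enzymes that cut large matrix proteoglycans such as versican and aggrecan. MMPs are zinc-dependent proteases that cut collagens, gelatins and other matrix proteins, and most are made as inactive precursors. TIMPs bind the active site of these enzymes. TIMP2 also takes part, with membrane-bound MMP14, in activating the MMP2 precursor, and TIMP3 stays bound to the matrix and inhibits several ADAMTS enzymes as well as MMPs.

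The libraries differed in size and quality. They held 1269, 4813 and 6000 barcodes in the first control, the second control and the LPS library, the order used throughout. UMIs (molecular barcodes, each counting 1 captured transcript) totalled 4940996, 20069697 and 21864072, and 431, 2697 and 5156 barcodes passed the filters. Gm42418, which overlaps ribosomal RNA sequence, took 9.81%, 1.59% and 28.61% of UMIs in that order, and haemoglobin genes took 43.97%, 7.91% and 25.23%. Levels are therefore given as CPM (counts scaled to a common total) over the UMIs left after Gm42418, haemoglobin and mitochondrial genes were set aside, with exact Poisson 95% intervals that cover counting error only. The LPS library held an unnamed group of 3247 shallow, Gm42418-rich barcodes, against 2 and 0 in the controls. Control replicate 2 shared 6 barcode sequences with the LPS library, control replicate 1 shared 2 with control replicate 2 and 1 with the LPS library, and 1 of these was kept in both libraries of its pair.

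Cells were named from marker genes that did not include the 10 genes. Endothelial-like cells numbered 36, 124 and 190, and all 12 endothelial markers were detected in each. Fibroblast-like cells numbered 24, 78 and 186 with all 10 markers detected, and phagocyte-like cells numbered 68, 211 and 370 with all 10 macrophage markers detected. Control and LPS cells of each class fell mostly into different clusters (clusters 10 and 11 for endothelial-like, 15 and 7 for fibroblast-like, and mainly 9 and 5 for phagocyte-like cells). Of the LPS fibroblast-like cells, 153 of 186 lay in a sub-cluster with a median of 48.8% Gm42418. The summed endothelial markers in endothelial-like cells were 11680, 10470 and 6674 CPM, the fibroblast markers in fibroblast-like cells 40970, 33490 and 18380 CPM, and the macrophage markers in phagocyte-like cells 20400, 19500 and 8301 CPM. Each class's own markers were thus lower in the LPS sums than in both controls. The 7 erythroid markers include haemoglobin genes, so their sums were scaled over all UMIs of the class, unlike the other levels. They were 302, 207 and 4741 CPM in endothelial-like, 568, 312 and 6009 CPM in fibroblast-like and 741, 306 and 3842 CPM in phagocyte-like cells, with 4 to 6 of the 7 detected. The part of these marker levels in the results that follow was not tested. UMIs were summed per class and library and compared with edgeR's quasi-likelihood test, with p-values adjusted over all genes tested in the class and a threshold of 0.05. As a check, RNA free in the suspension was estimated from the class with the lowest mean UMIs of a gene in each library and subtracted. A sole residual degree of freedom carries the spread, the LPS sums are taken to vary as the controls do, and a single LPS pool cannot tell the treatment from the library.

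RefSeq promoter windows were matched for 7 of the 10 genes (build GRCm38.p6). The 250 bases before the start are printed for the genes with a matched window that were called higher in at least 1 class, to set the starts of these genes side by side. Capitals mark matches, on either strand, to the TATA box TATAAA, the AP-1 site TGANTCA or the NF-kB consensus, and no matches overlapped. The windows lie at chr16:85803114-85803363, minus strand (Adamts1), chr6:92943535-92943784, minus strand (Adamts9), chr9:7445572-7445821, plus strand (Mmp3), chr14:54431348-54431597, plus strand (Mmp14) and chrX:20869916-20870165, plus strand (Timp1).
Adamts1: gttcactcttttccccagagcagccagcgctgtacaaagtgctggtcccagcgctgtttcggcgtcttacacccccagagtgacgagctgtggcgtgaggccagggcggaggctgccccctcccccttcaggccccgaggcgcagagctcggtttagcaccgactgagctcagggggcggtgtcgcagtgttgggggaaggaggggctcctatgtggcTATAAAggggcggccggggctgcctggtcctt
Adamts9: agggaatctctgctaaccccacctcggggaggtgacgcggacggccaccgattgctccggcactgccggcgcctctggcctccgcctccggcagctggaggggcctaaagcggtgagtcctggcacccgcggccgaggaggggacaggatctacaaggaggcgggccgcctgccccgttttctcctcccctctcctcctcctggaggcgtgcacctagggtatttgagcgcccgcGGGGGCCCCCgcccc
Mmp3: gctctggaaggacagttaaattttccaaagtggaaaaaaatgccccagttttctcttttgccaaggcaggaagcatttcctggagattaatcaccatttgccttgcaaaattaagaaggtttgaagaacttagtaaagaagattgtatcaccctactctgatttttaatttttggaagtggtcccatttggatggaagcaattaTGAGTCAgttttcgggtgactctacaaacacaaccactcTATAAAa
Mmp14: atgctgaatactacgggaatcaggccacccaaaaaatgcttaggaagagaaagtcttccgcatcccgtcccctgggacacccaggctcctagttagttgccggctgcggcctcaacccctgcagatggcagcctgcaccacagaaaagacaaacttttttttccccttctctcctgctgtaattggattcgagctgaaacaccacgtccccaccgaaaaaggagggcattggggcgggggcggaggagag
Timp1: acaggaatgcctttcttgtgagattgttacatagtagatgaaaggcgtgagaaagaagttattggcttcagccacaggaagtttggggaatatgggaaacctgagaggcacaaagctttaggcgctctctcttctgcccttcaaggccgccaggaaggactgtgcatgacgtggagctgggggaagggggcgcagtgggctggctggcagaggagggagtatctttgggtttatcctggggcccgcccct

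Adamts1 had TATAAA at -32 to -27, counted from the start. Mmp3 had TGAGTCA, a match to TGANTCA, at -46 to -40 and TATAAA at -7 to -2. Adamts9 had an NF-kB consensus match at -15 to -6. Timp1 and Mmp14 had none of the 3 motifs in this window. Among 32851 promoters of the same length, 12.4% held TATAAA, 6.75% held TGANTCA and 5% held the NF-kB consensus. GC content was 37.6% for Mmp3, 54.4% for Timp1, 55.2% for Mmp14, 65.6% for Adamts1 and 71.2% for Adamts9, beside a median of 52.4% over all promoters. A match to a motif describes these letters and is no evidence of binding.

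Several proteases and Timp1 were higher after LPS, while Timp2 and Timp3 were lower in fibroblast-like cells. In endothelial-like cells 5 of 8 tested genes were higher (Adamts1, Adamts4, Adamts9, Mmp14 and Timp1) and 0 were lower by edgeR, where 4.77% of all 8699 genes tested were called higher and 4.38% lower. At an unadjusted p under 0.05, 7 of the 8 passed, against 20.1% of all genes tested, and DESeq2 called 4 higher (without Mmp14) and 1 lower, Timp3. In fibroblast-like cells 3 of 7 tested genes were higher (Adamts1, Mmp3 and Timp1) and 2 were lower (Timp2 and Timp3), against 8.28% and 5.16% of 5423 genes. At an unadjusted p under 0.05 there were 6 of the 7, against 23.8% of all, and DESeq2 called 1 higher and 1 lower. In phagocyte-like cells 2 of 7 tested genes were higher (Mmp14 and Timp1) and 0 were lower, against 2.79% and 1.3% of 8790 genes, and 4 passed at an unadjusted p under 0.05, against 11.7% of all, while DESeq2 called 1 higher and 0 lower. The median log2 fold change over all genes tested was -0.02, 0.02 and -0.04 in the endothelial-like, fibroblast-like and phagocyte-like cells. Genes left untested for low counts were Mmp3 and Mmp9 in endothelial-like cells and Adamts4, Adamts9 and Mmp9 in fibroblast-like and phagocyte-like cells.

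**Figure D1:**
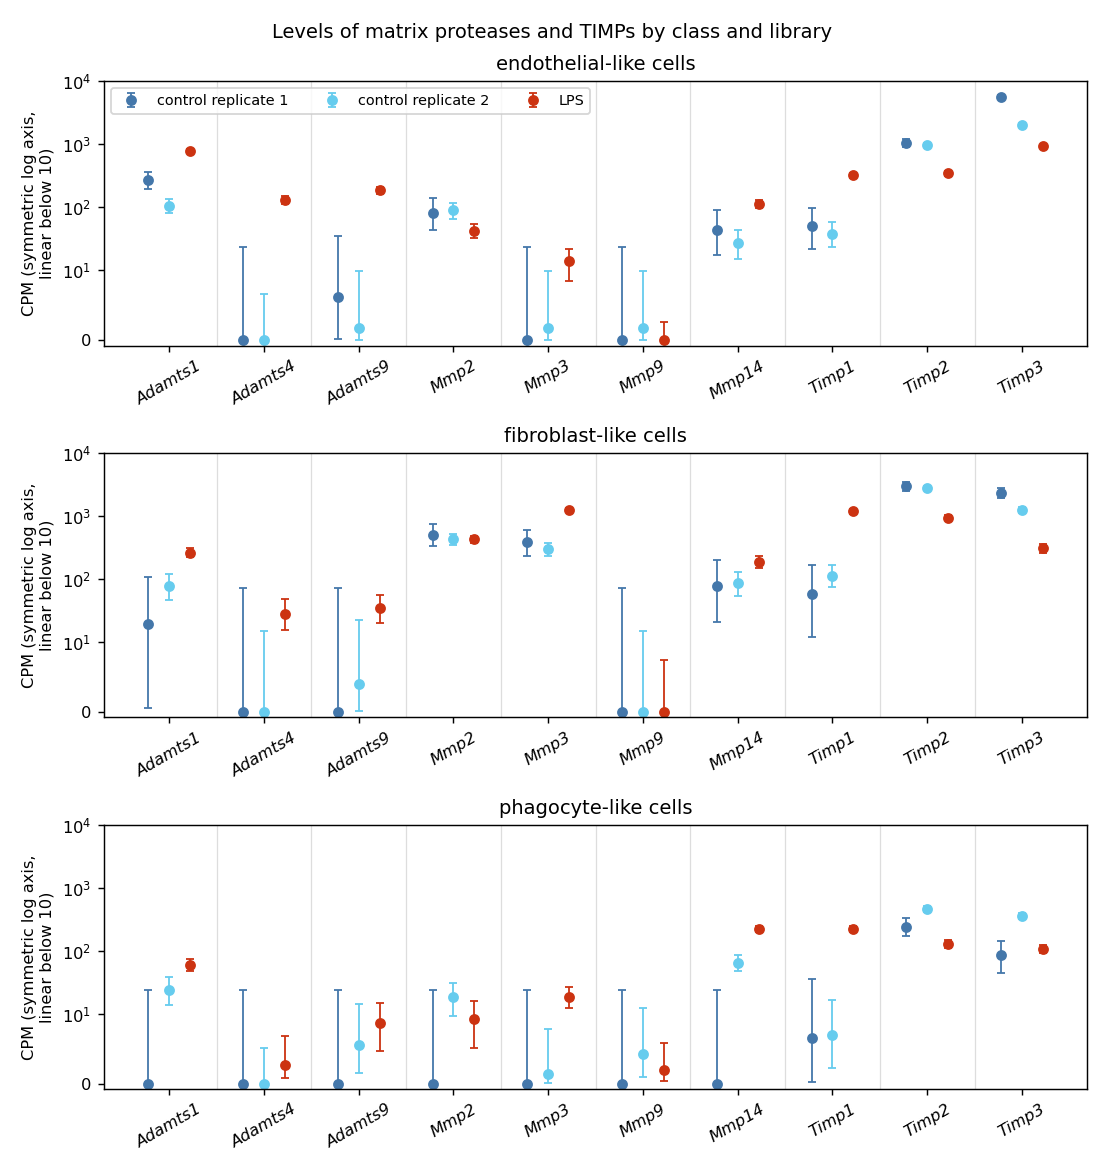
Level of each gene (CPM, symmetric log axis that is linear below 10) in endothelial-like, fibroblast-like and phagocyte-like cells of each library; points are sums over a class and bars are exact Poisson 95% intervals. Adamts4 in endothelial-like cells stands at 0 in both controls and at 131 CPM after LPS, and Timp2 lies lower after LPS than in both controls in all 3 panels.

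Among classes of at least 20 cells, the 3 ADAMTS genes had their highest LPS levels in endothelial-like cells. Fibroblast-like cells had 0, 0 and 14 UMIs of Adamts4 and 0, 1 and 17 of Adamts9. Phagocyte-like cells had 0, 0 and 4 of Adamts4 and 0, 4 and 13 of Adamts9. These counts were too low for the test. Positions of the 10 genes are whole protein-coding genes in the GENCODE annotation of GRCm38 (mm10). Adamts4 (chr1:171250421-171260637, plus strand), an aggrecan- and versican-cleaving enzyme, had 0 UMIs in the endothelial-like cells of both controls and 189 after LPS. That is 131 CPM (113 to 151) against upper limits of 22.9 and 6.51 CPM. Against a floor of 3 UMIs over both controls it was at least 31.8-fold higher (edgeR adjusted p = 1.57e-07). A UMI was found in 59 of 190 LPS endothelial-like cells, 31.1%, against 2 of 108 lymphoid-like cells of that library, 1.85%, at median depths of 4946.5 and 4842.5 UMIs. After thinning each cell to 1000 UMIs the endothelial-like share was 8.42% (4.89 to 13.3), beside 0% in both controls with upper bounds of 12.8% and 2.93%. The transcript was rare everywhere in the controls, with 0 UMIs over all barcodes of control replicate 1 and 3 over all of control replicate 2.

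Adamts9 (chr6:92772699-92943492, minus strand), a versican-cleaving enzyme, had 1, 1 and 266 UMIs in endothelial-like cells. The levels were 6.2, 1.77 and 185 CPM, so both controls lay far under the LPS library. The ratio was 67.1 with a counting interval of 18.4 to 557, and the fitted log2 fold change was 6.04 ± 0.72 (SE, edgeR adjusted p = 1.56e-07). Cells with a UMI were 84 of 190 after LPS, and the log2 value was 4.91 without control replicate 2. Adamts4 and Adamts9 kept their call under each other test, scaling, filter and class rule that gave a value, with log2 values of 4.98 to 9.9 for Adamts9.

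Adamts1 (chr16:85793827-85803113, minus strand), which cuts versican and aggrecan, was already present in the controls. Endothelial-like cells had 43, 59 and 1124 UMIs, or 266.5, 104 and 780 CPM. The controls differed by more than their counting intervals, and both lay under LPS. The log2 fold change was 2.26 ± 0.54 (SE, edgeR adjusted p = 0.00433). It was 2.96 without control replicate 1 and 1.71 without control replicate 2, and with free RNA subtracted the adjusted p was 0.15. In fibroblast-like cells the levels were 19.2, 76.5 and 261 CPM, higher after LPS by 2.19 ± 0.50 (adjusted p = 0.000274). That call was lost with DESeq2 (adjusted p = 0.367) and with free RNA subtracted (0.354), and the value was 3.82 without control replicate 2. Phagocyte-like cells had 0, 23.7 and 59.7 CPM, which did not pass (adjusted p = 0.125), and 70.5% of their LPS UMIs matched the free RNA estimate.

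Within the LPS endothelial-like cells the 3 ADAMTS genes were unevenly spread over sub-clusters. A sub-cluster of 22 cells had the highest levels, with 305 CPM of Adamts4, 478 CPM of Adamts9 and 1389 CPM of Adamts1. The largest sub-cluster, of 106 cells, had 79.3, 243 and 481 CPM in that order, and the third, of 62 cells, had 112, 91.7 and 763.5 CPM. Median UMIs per cell differed between them (9563, 4056 and 14750.5), and no test was made because all 3 come from 1 library.

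In the LPS library endothelial-like cells held 66.32% of the 285 Adamts4 UMIs and 44.04% of the 604 Adamts9 UMIs of kept barcodes. The unnamed Gm42418-rich barcodes held most of the rest, 23.51% and 35.76%. Adamts9 in 64 mesothelial-like cells stood at 180 CPM (133 to 239), overlapping the endothelial-like 185 CPM (163 to 208), and in 13 pericyte-like cells it stood at 209 CPM (76.6 to 454), which overlapped both. Adamts4 had 0 UMIs in both, with upper limits of 13.8 CPM in mesothelial-like and 128 CPM in pericyte-like cells. The pericyte-like limit reached into the endothelial-like Adamts4 interval of 113 to 151 CPM. Adamts4 and Adamts9 thus differed after LPS in mesothelial-like cells, and the pericyte-like cells were too few to tell.

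**Figure D2:**
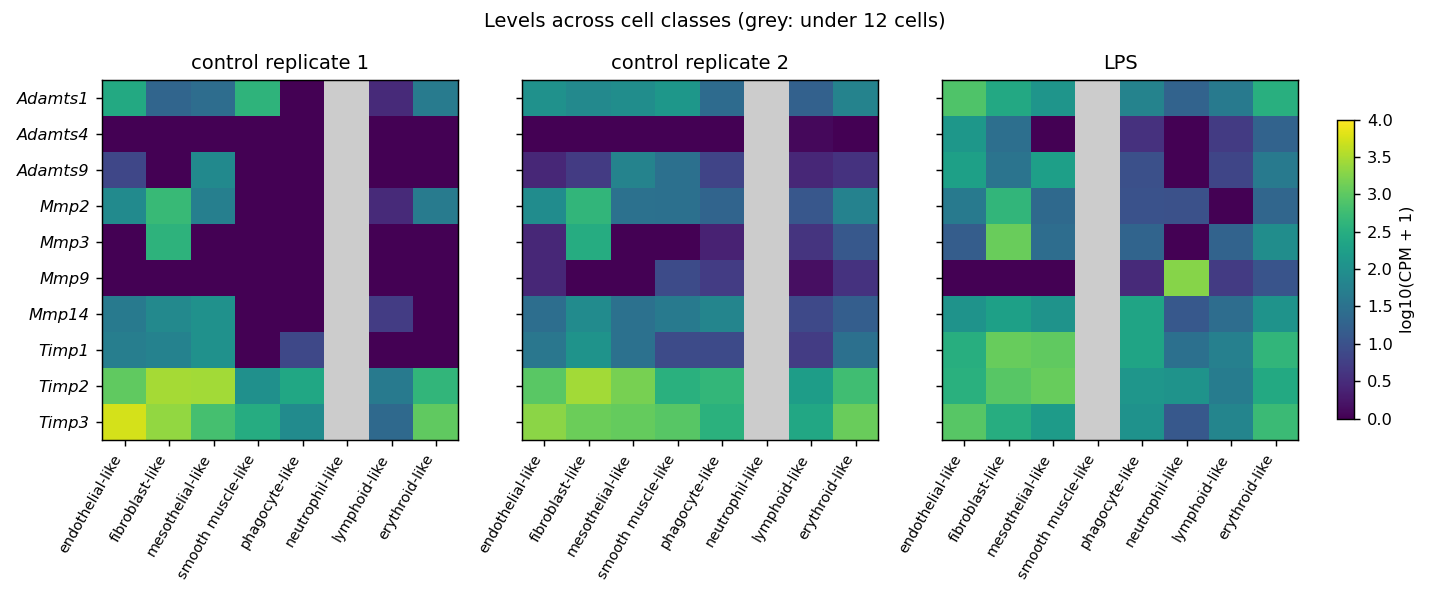
Levels of the 10 genes, as log10(CPM + 1) on the colour scale, in 8 cell classes of each library, with grey for classes of fewer than 12 cells. After LPS, Adamts4 is highest in endothelial-like cells, Mmp3 in fibroblast-like cells and Mmp9 in neutrophil-like cells.

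Among the MMPs, each of the 4 genes had its own distribution. Mmp3 (chr9:7445822-7455975, plus strand), stromelysin-1, which cuts many matrix proteins and activates other MMP precursors, was highest in fibroblast-like cells of every library. There it had 20, 73 and 615 UMIs, or 383, 294 and 1233 CPM, and the control intervals of 234 to 592 and 230 to 369.5 CPM overlapped while LPS lay above both. The log2 fold change was 2.06 ± 0.43 (SE, edgeR adjusted p = 4.66e-05), and with DESeq2 the adjusted p was 0.0607. Control values rested on single cells, since 1 cell held 95% of the UMIs in control replicate 1 and 90.4% in control replicate 2, against 35.9% after LPS. With the top cell of each library left out, an alternative chosen after seeing the data, the levels were 19.2, 28.2 and 790 CPM and the log2 value was 5.02 (adjusted p = 1.5e-16). The shares of fibroblast-like cells with a UMI were 2 of 24, 6 of 78 and 46 of 186, or 8.33%, 7.69% and 24.7%. After LPS, 548 of the 615 UMIs came from 33 deeper cells with a median of 10.9% Gm42418, at 1563 CPM, and 67 from the 153 Gm42418-rich cells, at 452 CPM. In endothelial-like cells Mmp3 had 0, 1 and 20 UMIs, too few for the test, and 12 of the 20 came from 1 cell.

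Mmp14 (chr14:54431612-54445364, plus strand), a membrane-anchored collagenase, was the MMP called in the most classes. In endothelial-like cells it had 43.4, 26.5 and 112 CPM, with 7, 15 and 161 UMIs. The LPS level lay above both controls, by a log2 fold change of 1.90 ± 0.51 (SE, edgeR adjusted p = 0.0135). DESeq2 gave 0.519 and free RNA subtraction 0.175. In phagocyte-like cells the levels were 0, 64.1 and 218 CPM, with 0 of 68, 29 of 211 and 120 of 370 cells holding a UMI. The log2 fold change was 2.43 ± 0.61 (adjusted p = 0.00321), and it was 1.85 without control replicate 1 and 8.49 without control replicate 2, where the remaining control had 0 UMIs. The call was lost with DESeq2 (adjusted p = 1), with free RNA subtracted (0.9) and at a mitochondrial limit of 10% (0.465). A deep LPS sub-cluster of 27 phagocyte-like cells, with a median of 5% Gm42418, had Mmp14 in 23 cells and at 187 CPM, and its markers scored highest for monocytes. The main LPS sub-clusters of 177 and 148 cells had 243 and 347 CPM, and a deep sub-cluster of 27 cells of control replicate 2 (median 12817 UMIs) had Mmp14 in 16 cells and at 91.8 CPM. Fibroblast-like cells had 76.7, 84.5 and 184.5 CPM, a log2 value of 1.29 ± 0.50 that did not pass (adjusted p = 0.0638). It passed with the top cell of each library left out (0.0268) and without Gm42418-rich barcodes (0.0472).

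Mmp2 (chr8:92827291-92853420, plus strand), gelatinase A, was highest in fibroblast-like cells. Its fibroblast-like levels were 498, 423 and 421 CPM, with overlapping intervals, and the log2 fold change was 0.04 ± 0.45 (edgeR adjusted p = 0.975). Endothelial-like cells had 80.6, 88.3 and 41.6 CPM, a log2 value of -0.94 ± 0.50 that did not pass (adjusted p = 0.297). Fibroblast-like cells were the highest class for Mmp2 in each library, and the counting interval of no other class of at least 20 cells reached theirs.

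Mmp9 (chr2:164940780-164955850, plus strand), gelatinase B, which neutrophils carry in granules, was found mainly in neutrophil-like cells. These numbered 3, 1 and 35 and held 8, 9 and 637 Mmp9 UMIs. The levels were 1207 (521 to 2378), 3221 (1473 to 6115) and 1868 (1726 to 2019) CPM, so the LPS level lay inside both control intervals. In the LPS library 96.66% of the 659 Mmp9 UMIs came from the 35 neutrophil-like cells, against 9 of 22 in control replicate 2. Endothelial-like and fibroblast-like cells had 0 Mmp9 UMIs after LPS, with upper limits of 2.56 and 7.4 CPM, and phagocyte-like cells had 3 UMIs in both control replicate 2 and the LPS library. The kept barcodes of the 3 libraries held 8, 22 and 659 Mmp9 UMIs in all, and neutrophil-like cells were too few in the controls for a test.

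**Figure D3:**
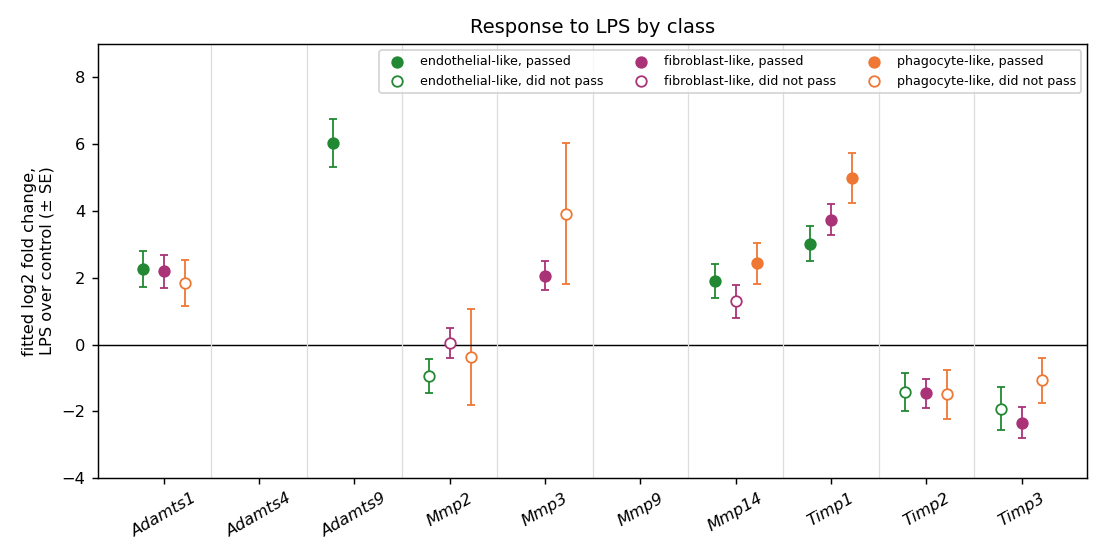
Fitted log2 fold change of LPS over control (edgeR, ± SE) for each gene and class, with filled symbols for genes past the adjusted threshold of 0.05 and open symbols for those that were not. Timp1 lies above 0 and Timp2 and Timp3 below 0 in all 3 classes (Timp3 in phagocyte-like cells was above 0 with free RNA subtracted), Mmp2 in fibroblast-like cells lies at 0.04, Adamts4 is not drawn because both controls had 0 UMIs, and other gaps were not tested.

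Of the inhibitors, Timp1 (chrX:20870166-20874735, plus strand), known as the TIMP that inflammatory signals induce, was higher after LPS in all 3 classes. Endothelial-like cells had 49.6, 37.1 and 316 CPM, from 8, 21 and 456 UMIs, and the control intervals of 21.4 to 97.7 and 22.9 to 56.7 CPM overlapped each other and stayed under LPS. The log2 fold change was 3.02 ± 0.52 (SE, edgeR adjusted p = 9.42e-05). Fibroblast-like cells had 57.5, 113 and 1179 CPM, which lay 3.74 ± 0.47 higher after LPS on the log2 scale (adjusted p = 4.9e-13) and 4.50 without control replicate 2. Phagocyte-like cells had 6.46, 6.96 and 219 CPM, higher by 5.00 ± 0.75 (adjusted p = 6.75e-09). Cells with a UMI went from 5 of 36 and 16 of 124 to 100 of 190 in endothelial-like cells, from 2 of 24 and 15 of 78 to 101 of 186 in fibroblast-like cells, and from 1 of 68 and 5 of 211 to 101 of 370 in phagocyte-like cells. In lymphoid-like cells, whose mean set the LPS free RNA estimate of Timp1, the LPS share was 19.4% beside 27.3% in phagocyte-like cells. Median depths were 4842.5 UMIs in lymphoid-like cells and about 1957 to 2260.5 UMIs in the 2 main phagocyte-like sub-clusters. Erythroid-like cells had 0, 29.1 and 434.5 CPM of Timp1, and their LPS level lay above those of endothelial-like and phagocyte-like cells. That level is scaled over the 7.7% of erythroid-like LPS UMIs left after haemoglobin and the other genes were set aside. Per cell, Timp1 UMIs after LPS were 0.275 in erythroid-like, 2.4 in endothelial-like and 0.892 in phagocyte-like cells. Of the erythroid-like LPS Timp1 UMIs, 94.4% matched the free RNA estimate. The free RNA estimate made up 10.8%, 8.2% and 29.1% of the LPS Timp1 UMIs of the endothelial-like, fibroblast-like and phagocyte-like cells. With it subtracted, the call was kept in endothelial-like cells and lost in fibroblast-like (adjusted p = 0.0692) and phagocyte-like cells (0.0836), where the log2 values were 3.62 and 5.12. The phagocyte-like call was also lost at a mitochondrial limit of 10% (log2 value 6.74, adjusted p = 0.121). Neutrophil markers in the phagocyte-like sums stood at 19.4 and 16.7 CPM in the controls and 576 CPM after LPS, while neutrophil-like cells themselves had 29.3 CPM of Timp1.

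Timp2 (chr11:118301069-118355740, minus strand), which assists MMP14 in activating the MMP2 precursor, was most abundant in fibroblast-like cells of the controls. Their levels were 2932, 2778 and 928 CPM, from 153, 690 and 463 UMIs. Both controls agreed within their intervals and LPS lay under them, by a log2 value of -1.46 ± 0.44 (edgeR adjusted p = 0.00972). The call was lost with DESeq2 (0.215), with no low-count filter (0.217), with free RNA subtracted (0.557) and with all 3 classes fitted together (0.375), at log2 values of -1.42, -1.38, -1.58 and -1.44. Endothelial-like cells had 1041, 961 and 345 CPM, a value of -1.43 ± 0.57 that did not pass (adjusted p = 0.121). Phagocyte-like cells had 239, 451 and 126 CPM, -1.49 ± 0.73, which did not pass either (adjusted p = 0.38).

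Timp3 (chr10:86300372-86349506, plus strand), the matrix-bound TIMP, gave the most UMIs of the 10 genes in endothelial-like cells of every library, and its level was highest in that class. It had 5585, 2020 and 919 CPM there, from 901, 1144 and 1324 UMIs. The log2 value of -1.92 ± 0.65 missed the threshold (edgeR adjusted p = 0.0546). It passed with DESeq2 (0.0323), without Gm42418, haemoglobin and mitochondrial genes (0.0414), with cells classed one by one (0.00442), at a mitochondrial limit of 10% (0.00341) and with finer clustering (0.00553). A single cell of control replicate 1 held 627 of its 901 UMIs, 69.6%. With the top cell of each library left out the levels were 1698, 1776 and 796 CPM, and the log2 value was -1.03 (adjusted p = 0.314). Fibroblast-like cells had 2280, 1252 and 307 CPM, which was lower after LPS by a log2 value of -2.34 ± 0.47 (adjusted p = 2.24e-05). This call was lost with free RNA subtracted (0.342) and with the 3 classes fitted together (0.0949). Phagocyte-like cells had 84, 354 and 107 CPM, a value of -1.07 ± 0.67 (adjusted p = 0.625) that was 0.15 without control replicate 2 and 2.21 with free RNA subtracted. Smooth muscle-like cells had 299.6 and 911.5 CPM of Timp3 in the controls, 0 cells of the LPS library took that name, and the summed smooth muscle markers in fibroblast-like cells were 1054, 6357 and 1550 CPM. These markers were 527, 4824 and 604 CPM in endothelial-like and 595, 6090 and 986 CPM in phagocyte-like cells. The part of smooth muscle transcripts in the Timp3 values of the 3 classes was not tested.

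The make-up of TIMP transcripts shifted towards Timp1 after LPS, a measure within each library that needs no scaling between libraries. Timp1 took 1.09% and 2.72% of the Timp1, Timp2 and Timp3 UMIs of fibroblast-like cells in the controls and 48.8% (exact Clopper-Pearson 95% interval 46 to 51.7) after LPS. In endothelial-like cells it took 0.743%, 1.23% and 20% (18.4 to 21.7), and in phagocyte-like cells 1.96%, 0.858% and 48.5% (44.6 to 52.3). Mesothelial-like cells, with 19, 19 and 64 cells, gave 2.92%, 1.14% and 44.4%. With the cell richest in TIMP UMIs left out of each sum, the LPS shares were 47.1%, 21.5%, 43% and 39.5% in the fibroblast-like, endothelial-like, phagocyte-like and mesothelial-like cells.

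High Timp1 shares after LPS were also found in lymphoid-like and erythroid-like cells and in unnamed barcodes. Lymphoid-like cells had Timp1 shares of 0%, 0.979% and 32.9% (23.1 to 44), erythroid-like cells 0%, 1.6% and 35% (31.2 to 38.9), and the Gm42418-rich barcodes of the LPS library 33% (31.5 to 34.6). Those Gm42418-rich barcodes stood at 495 CPM of Timp1 and 668 CPM of Timp3 and held 35.65% and 42.84% of the LPS UMIs of these 2 genes. The free RNA estimate made up 73.5% of their Timp1 and 24% of their Timp3 UMIs. The LPS shares in fibroblast-like and phagocyte-like cells lay above those of lymphoid-like, erythroid-like and Gm42418-rich barcodes, outside the intervals for counting error. The endothelial-like LPS share lay below the same shares, also outside their intervals. It lay inside the wider LPS intervals of neutrophil-like (18.9%, 9.44 to 32), B-cell-like (21.1%, 6.05 to 45.6) and pericyte-like cells (27.8%, 9.69 to 53.5). The pericyte-like interval, and that of the other unnamed LPS barcodes (47.7%, 42 to 53.5), also held the fibroblast-like and phagocyte-like shares. The placing of these shares thus depended on the classes compared. Without its top cell, the phagocyte-like share of 43% lay inside the lymphoid-like interval. No test was made between libraries on these shares.

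**Figure D4:**
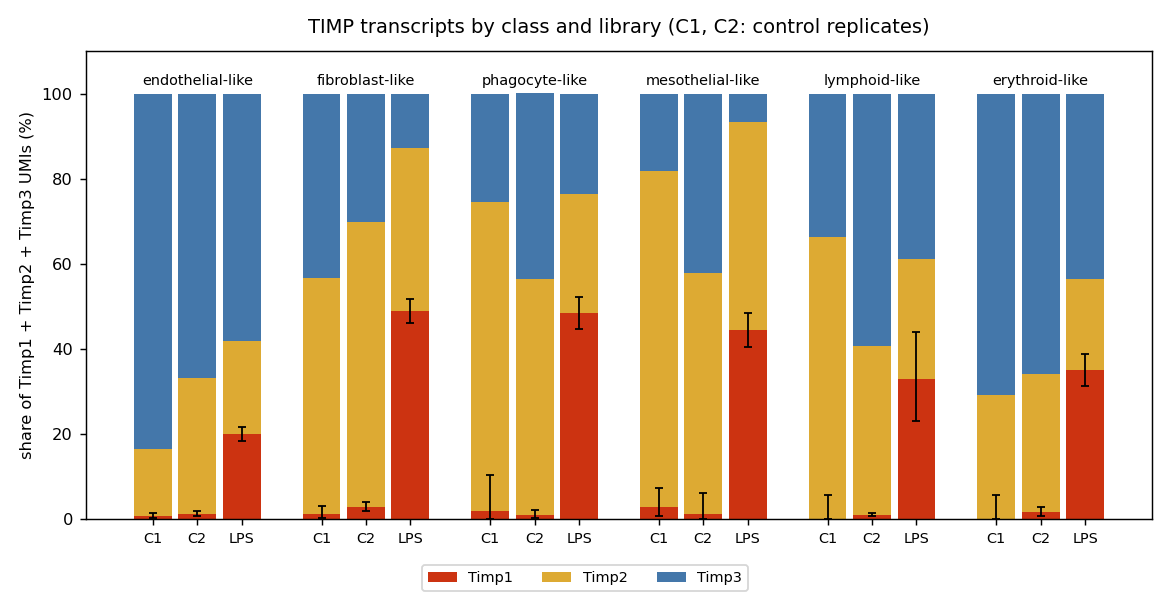
Share (%) of Timp1, Timp2 and Timp3 among the UMIs of these 3 genes in 6 cell classes, with 1 stacked bar per library (C1 and C2 for the control replicates) and exact 95% intervals on the Timp1 share. Timp1 takes at most 2.92% in any control bar and between 20% and 48.8% after LPS.

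Whether the response differed between classes was tested as a class by treatment interaction, and 0 of the 8 genes tested passed in any of 3 pairs of classes by edgeR. Background calls were 0.671% of genes for endothelial-like against fibroblast-like, 0.155% for endothelial-like against phagocyte-like and 0.112% for fibroblast-like against phagocyte-like cells. The sole gene with an unadjusted p under 0.05 was Adamts9, whose response was larger in endothelial-like than in phagocyte-like cells by 5.03 ± 1.61 on the log2 scale (adjusted p = 0.298). Timp1 differed by -0.64 ± 0.67 between endothelial-like and fibroblast-like cells and by -1.96 ± 1.08 between endothelial-like and phagocyte-like cells. Standard errors of 0.48 to 3.06 leave room for differences of a log2 unit or more. Adamts4 could not be compared in this way, because its controls held 0 UMIs in all 3 classes, and Mmp9 was left out for low counts.

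Other protease and inhibitor genes, 80 in 9 lists, gave 5 higher and 5 lower of 34 tested in endothelial-like cells, 4 higher and 6 lower of 38 in fibroblast-like cells, and 6 higher and 1 lower of 38 in phagocyte-like cells. Over all genes tested, 4.77% were called higher and 4.38% lower in endothelial-like cells. The shares were 8.28% and 5.16% in fibroblast-like and 2.79% and 1.3% in phagocyte-like cells. In the plasminogen system, whose protease plasmin activates MMP precursors, the receptor Plaur (16, 20 and 640 UMIs, 3.02 ± 0.55 on the log2 scale, edgeR adjusted p = 0.000197) and the activator Plat (27, 53 and 795 UMIs, 2.25 ± 0.52, adjusted p = 0.00312) were higher in endothelial-like cells. Serpinb2, an inhibitor of plasminogen activators, was higher in phagocyte-like cells (3, 8 and 160 UMIs, 2.99 ± 0.68, adjusted p = 0.000603). Vcan, the proteoglycan versican and a substrate of ADAMTS enzymes, was higher in all 3 classes, by 2.17, 1.68 and 3.18 in endothelial-like, fibroblast-like and phagocyte-like cells (adjusted p = 0.00751, 0.00293 and 0.000127). Phagocyte-like cells had 2, 11 and 200 Vcan UMIs. The Vcan controls differed, at 59.2 and 16.3 TMM-scaled CPM in endothelial-like and 371 and 118 in fibroblast-like cells. Without control replicate 2 the Vcan log2 values were 1.23 and 0.89 in endothelial-like and fibroblast-like cells, and without control replicate 1 they were 3.05 and 2.50. The log2 value was 2.31 for Plaur and 2.22 for Serpinb2 without control replicate 2, and 3.70 for Plaur without control replicate 1. Vcan was the 1 of 4, 1 of 3 and 1 of 3 tested substrates that passed. Single genes of these lists were followed only with each control left out, not under DESeq2, free RNA subtraction or the other alternatives.

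Among other MMPs, Mmp12, the elastase of macrophages, had 41, 1190 and 106 UMIs in phagocyte-like cells and was lower by a log2 value of -3.74 ± 0.94 (edgeR adjusted p = 0.00354), with -2.10 against control replicate 1 alone. Mmp23 was lower in fibroblast-like cells (-2.0 ± 0.50, adjusted p = 0.00117). Among other inhibitors, Reck, a membrane-anchored MMP inhibitor, was lower in fibroblast-like cells (-2.10 ± 0.59, adjusted p = 0.00535, and -2.70 without control replicate 2), as was Pcsk6, a convertase that activates protease precursors (-2.84 ± 0.54, adjusted p = 5.59e-06). Adamts15 was higher in fibroblast-like cells, from 1 and 11 to 168 UMIs (3.24 ± 0.53, adjusted p = 9.01e-08), with 4.19 without control replicate 2. It was also called higher in phagocyte-like cells, as 1 of 4 other ADAMTS genes tested there. In endothelial-like cells edgeR also called Adamts10 (-1.9 ± 0.56), 1 of 4 other ADAMTS genes tested there, and Pcolce (-2.44 ± 0.63) lower. In fibroblast-like cells Adamtsl3 (-2.65 ± 0.66) and Adam23 (-2.42 ± 0.78) were lower, the latter by -1.17 without control replicate 1. Adam9 was called higher in endothelial-like, fibroblast-like and phagocyte-like cells, by 1.95 ± 0.62 in phagocyte-like cells. Of the cathepsins and cystatins, 2 of 9 tested genes were lower in endothelial-like cells, Cst3 (-2.72) and Ctsh (-1.81), and all 10 tested in fibroblast-like and all 9 tested in phagocyte-like cells did not pass.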

How the data were processed

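The authors deposited raw UMI counts of genes by barcodes, and the submitters' processing notes name Cell Ranger 3.1 and mm10. The gene annotation and how barcodes were chosen are not given in the sources used. Members and lists were chosen with earlier results of these data known. The filters (500 UMIs or more, 300 genes or more, no more than 15% mitochondrial) kept 8284 of 12082 barcodes. They were clustered in 2 steps without the genes of the report and its lists (scanpy 1.11.5, leidenalg 0.10.2, resolution 1.0, then 0.5), and named from markers of 16 classes. No doublet caller was run, so doublets remain.

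Counts were summed per class and library for classes with at least 20 cells in each library and tested with edgeR 4.0.16 (quasi-likelihood, TMM, filterByExpr, Benjamini-Hochberg, R 4.3.3), a script tested on simulated data. SE is the log2 fold change divided by the square root of F. Folds use CPM totals. Free RNA was estimated per gene and library from the class with the lowest mean. Named genes were all members, up to 8 list genes per class past the threshold with at least 20 CPM, and the 3 genes most like each member. Alternatives were DESeq2 1.42.0, other filters, gene sets and class rules, free RNA subtraction, each control left out and a joint fit. The labels do not number replicates, so controls are numbered in record order. Pools are not said to be separate experiments, and p-values may measure technical spread. Positions and overlaps are from the annotation of GRCm38. A gene of the lists that met the rule for named genes is not reported here.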

Additional observations from a re-analysis of the deposited data

How the results depend on the processing

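No called gene changed direction. Of the values for single genes, 385 stayed alike, 19 lost their call, 10 gained one, 10 moved by more than the SE and 21 changed sign, all of them uncalled. For log2 fold changes these were Mmp2 in fibroblast-like cells (0.04; -0.02 without Gm42418, haemoglobin and mitochondrial genes, -0.03 with free RNA subtracted, -0.26 with cells classed one by one, -0.05 without control replicate 2, 0.08 without control replicate 1), Mmp2 in phagocyte-like cells (4.02 without control replicate 2, -0.84 without control replicate 1) and Timp3 in phagocyte-like cells (2.21 with free RNA subtracted, 0.15 without control replicate 2, -1.63 without control replicate 1). Differences between classes changed sign for endothelial-like against fibroblast-like in Adamts1 (-0.02 with DESeq2), Mmp3 (-0.47 without the top cell) and Timp2 (-0.1 without Gm42418-rich barcodes, -0.06 without the top cell). For endothelial-like against phagocyte-like cells, without Gm42418-rich barcodes, Mmp2 was 0.19, Timp2 0.16 and Timp3 0.06, and Timp2 was 0.01 with no filter and without the Gm42418, haemoglobin and mitochondrial genes, 0.2 at the 10% limit and 0.17 without the top cell. For fibroblast-like against phagocyte-like cells Mmp2 was -2.74 with free RNA subtracted, and Timp2 was 0.28 without Gm42418-rich barcodes and 0.24 without the top cell. No paired analysis was possible because the labels do not number the replicates and there was 1 LPS library.

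Counts moved as follows. With free RNA subtracted, endothelial-like genes called higher fell from 5 to 3, fibroblast-like from 3 higher and 2 lower to 0 and 0, and phagocyte-like from 2 to 0, while calls over all genes went from 796 to 197, from 729 to 32 and from 359 to 32. With DESeq2 there were 4 higher and 1 lower in endothelial-like, 1 higher and 1 lower in fibroblast-like and 1 higher in phagocyte-like cells, and 245, 115 and 75 calls over all genes. Endothelial-like genes called lower were 1 without Gm42418, haemoglobin and mitochondrial genes, 1 at the mitochondrial limit of 10%, 1 with finer clustering and 2 with cells classed one by one. Fibroblast-like genes called lower were 1 with no filter on low counts and 0 with the 3 classes fitted together, which called 437 genes in all. At the mitochondrial limit of 10%, phagocyte-like cells had 0 genes called higher and 0 over all genes, with 68, 56 and 352 cells. The interaction count was 0 under each alternative. The causes were not tested.

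Leaving out barcodes with 3 or more markers of another class left 1 to 3 cells of each class in control replicate 2 and gave no value, as did fibroblast-like cells at the 10% limit (19 cells). Leaving out Gm42418-rich barcodes and the top cell were chosen after seeing the data.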

Other observations

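Mesothelial-like cells, too few in the controls for a test, had 105, 30.4 and 1058 CPM of Timp1 and 2836, 1523 and 1166 CPM of Timp2 in the first control, the second control and the LPS library. Their Adamts9 level was 78.8, 60.9 and 180 CPM, with overlapping intervals.

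Across 12 sums (4 classes in 3 libraries, which share libraries and depth), the genes with the pattern most like Adamts4 among 12137 genes were Ubd (Pearson r 0.978), Car4 (0.976) and Csf3 (0.966). For Adamts9 they were Ptgs2 (0.911), Map3k6 (0.910) and Map7d3 (0.908). For Mmp3 they were Pdpn (0.992), Gm17167 (0.985) and Igfbp3 (0.973). For Timp1 they were Ptpn11 (0.967), Ifit3 (0.960) and Man2a1 (0.949). Adamts4 and Adamts9 correlated at 0.89 with each other, as did Mmp2 and Timp2.

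Timp1 and Timp3 lie opposite Syn1 and Syn3 on the other strand. Syn1 had 0 UMIs in endothelial-like cells of all 3 libraries, and Syn3 had 15, 24 and 31, or 93, 42.4 and 21.5 CPM.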
